A study of Mus musculus with 19 samples.

Results

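Transcripts of 7 Schwann cell and myelin genes, Mbp, Pmp22, Mag, Prx, Cnp, S100b and Ngfr, were read in quadriceps of AR113Q and wild-type mice. The members were taken by name: every non-control probe of the scanner files that carries 1 of the 7 symbols, which gave 10 probes of the 39429 on the array, and 7 of its 30214 gene names. Mbp was read by 3 probes, Pmp22 by 2 and each other gene by 1. All mice were congenic C57Bl6J males killed at 180 days of age, and total RNA of their quadriceps was hybridized to 1-colour Agilent arrays, 1 sample per array. AR113Q mice carry an expanded run of glutamine codons, knocked into the androgen receptor gene, and model spinal and bulbar muscular atrophy (SBMA), and CTR mice are wild type. Each genotype was fed a purified normal chow diet (NCD) or, from 40 days of age, a high-fat diet (HFD), which gave 5 arrays of each group but CTR-HFD, which had 4. Whether each sample stands for 1 mouse is not given in the sources used here, so p-values measure the spread between these samples. The knock-in allele is not restricted to any cell type, and a muscle sample holds fibers, nerve branches, vessels and other cells together, so that fewer cells of a type and less RNA per cell cannot be told apart.

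Schwann cells are the glia of peripheral nerve. Inside muscle they wrap the motor and sensory axons in myelin, ensheathe the small unmyelinated axons, and cap the neuromuscular junction. Mbp (myelin basic protein) and Pmp22 (peripheral myelin protein 22) are parts of compact myelin. Mag (myelin-associated glycoprotein) sits on the inner Schwann cell membrane that faces the axon, Prx (periaxin) links the outer Schwann cell membrane to its basal lamina, and Cnp (cyclic nucleotide phosphodiesterase) lies in the uncompacted channels of the sheath. S100b is a calcium-binding protein used to stain Schwann cells. Ngfr is the low-affinity neurotrophin receptor p75, which is low in mature myelinating Schwann cells and returns when they lose their axon. None of the 7 is restricted to Schwann cells: S100b is also made by adipocytes and Ngfr by muscle precursors.

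Each value rests on a short DNA oligonucleotide fixed to the array, and the probes behind the genes that differed, or that are set beside them here, are shown by their first 30 bases, 5′ to 3′ in lower case, as the scanner files list them. Positions are those of mm9, and the strand follows from the order in which the files list start and end. S100b (NM_009115) was read at chr10:75723783-75723842, plus strand, and Ngfr (NM_033217) at chr11:95430211-95430270, minus strand. Cnp (NM_009923) was read at chr11:100442617-100442676, plus strand, Prx (NM_019412) at chr7:28304999-28305058, plus strand, and Mag (NM_010758) at chr7:31684202-31684261, minus strand. Both Pmp22 probes lie on the plus strand and are assigned to NM_008885, probe 1 at chr11:62971862-62971921 and probe 2 at chr11:62972989-62973048. Gldn (NM_177350), from a list of peripheral myelin genes described further on, was read at chr9:54189513-54189572, plus strand. Mbp is named only.
S100b: gaagctggacttgaggctttctaacttgca
Ngfr: tccagctggcgactatgagatccagacctc
Cnp: tttggtcattcctaagttcctatctccttc
Prx: cctcattggccaaagtgcctgtatatcatg
Mag: tgtcccttacctggccccaggacctgtaca
Pmp22 probe 1: ttcccctagccctcctcagtggtatcatct
Pmp22 probe 2: ctctgattttataccaactgtgtggactaa
Gldn: ccatcagtaaccacagattctaaacgacca

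Levels are log2 signals relative to the 75th percentile of the array, so that 0 stands for that percentile, and a level can be compared between arrays for 1 probe but not between probes. All 10 member probes were well above background and unsaturated on 19 of 19 arrays, and all 10 were among the 32026 probes tested. They differed in how far they stood above the local background. The mean signal of Pmp22 probe 2 was 39.6 to 118 times the background, that of Prx 24.8 to 64.3 times and that of S100b 16.1 to 50.1 times. Ngfr stood 4.95 to 16.8 times above it, Mbp probe 1 4.30 to 9.59 times and Mbp probe 3, the dimmest, 2.76 to 4.46 times. Skeletal muscle fiber genes had a mean log2 level of 7.26 to 7.94 over the 19 arrays, as the tissue label says. Per array, 67.1% to 80.1% of all probes stood well above background, and the 19 arrays lay on 5 slides, each with arrays of several groups.

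**Figure D1:**
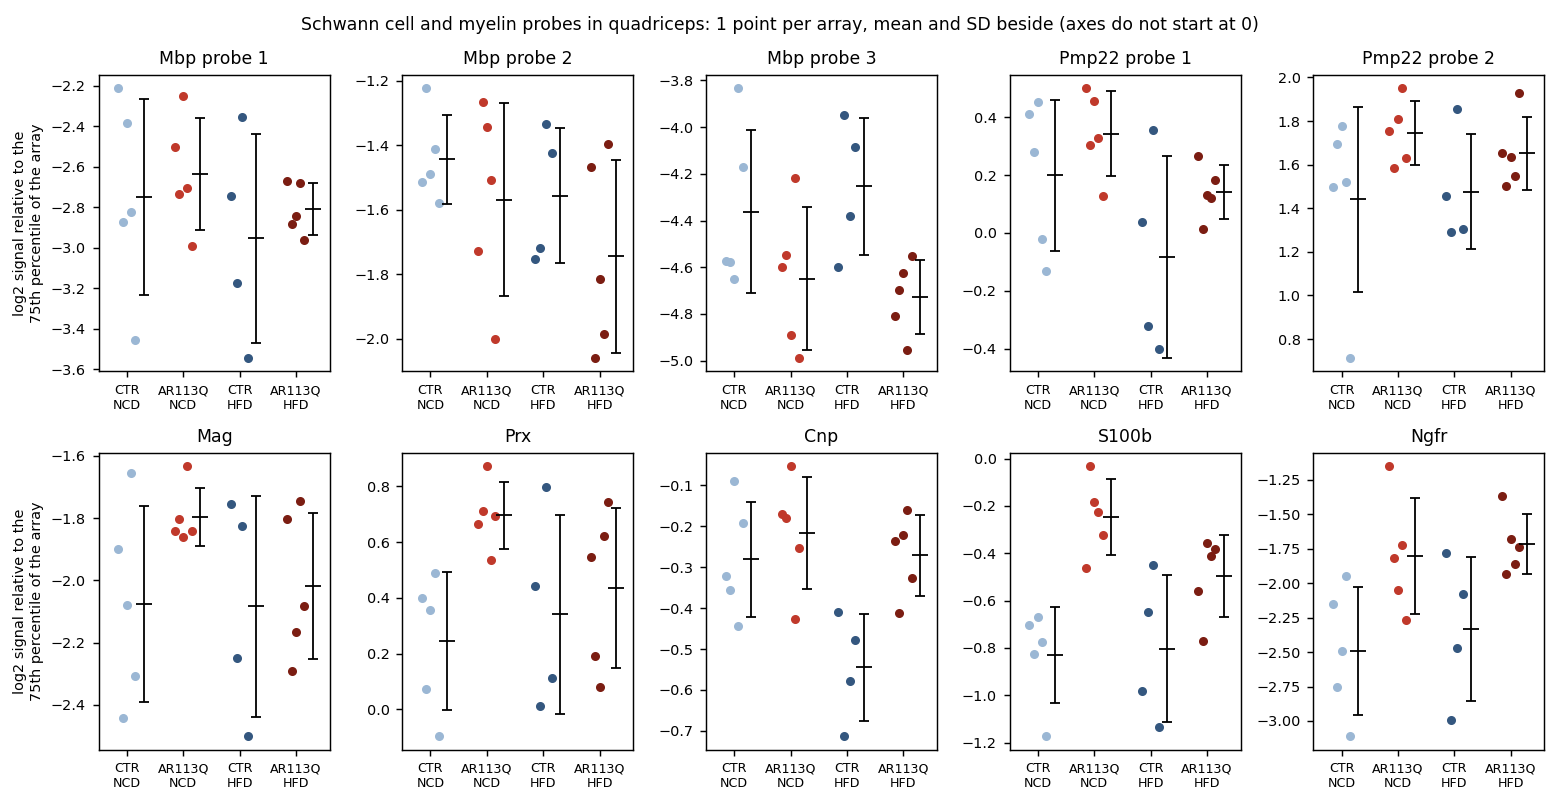
Log2 signal relative to the 75th percentile of the array (vertical axes, not starting at 0) of each member probe in the 4 groups, with 1 point per array and the mean and SD (n = 5, and n = 4 for CTR-HFD) beside the points. S100b and Prx of AR113Q-NCD lie above every CTR-NCD array, and the other groups overlap at least in part.

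Of the 7 genes, S100b and Ngfr were higher in AR113Q quadriceps over both diets, by 1.36-fold and 1.57-fold, and Cnp by 1.12-fold, close to the threshold. Pmp22, Mag and Prx had positive differences in both diets (Mag turned negative on NCD under normexp and on HFD with a slide block) but did not pass in any comparison of the main fit, and of the 3 Mbp probes the dimmest was lower. A probe passed when its Benjamini-Hochberg adjusted p in limma, over all probes tested, was under 0.05. Between AR113Q-NCD and CTR-NCD, 1 of 10 member probes passed (S100b, higher), against 17.6% of all probes in either direction, 8.29% as higher and 9.28% as lower. Between AR113Q-HFD and CTR-HFD, 1 of 10 passed (Cnp, higher), against 17.9% in either direction, 8% as higher and 9.93% as lower. With both diets together, 3 probes passed as higher (S100b, Ngfr and Cnp) and 1 as lower (Mbp probe 3), against 29.3% of all probes in either direction, 13.3% as higher and 16% as lower. The members' counts are therefore near the share of all probes. With a fold of at least 1.5 or at most 0.6 required as well, 0 members passed on NCD, 0 on HFD and 1 over both diets (Ngfr), against 4.33%, 4.75% and 5.07% of all probes. The median log2 difference of the 10 probes was 0.21 on NCD, 0.16 on HFD and 0.18 over both diets, beside −0.057, −0.082 and −0.070 for all genes tested. With the median of each array subtracted instead of the 75th percentile, 59.2% of the genes called on HFD were higher, beside 43.1% in the main fit, and over both diets 55.8% beside 44.9%. The both-diets comparison uses the arrays of the other 2 comparisons and adds no samples to them.

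**Figure D2:**
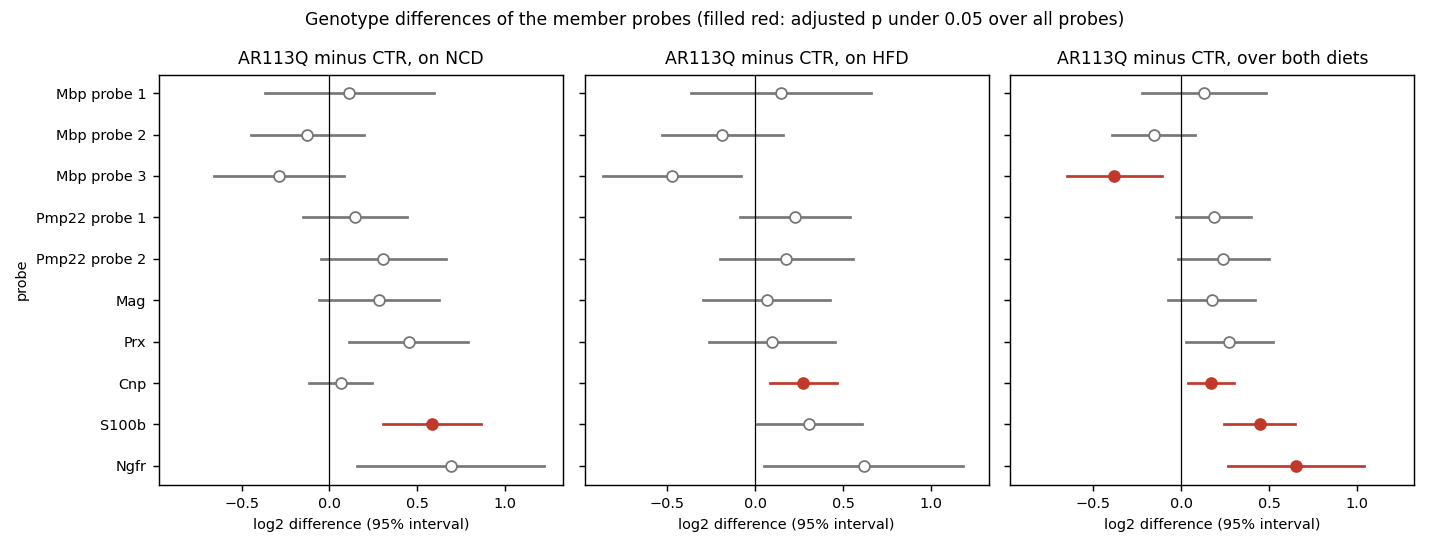
Log2 difference, AR113Q minus CTR, with its 95% interval from limma (horizontal axis) for the 10 member probes on NCD, on HFD and over both diets. Filled red points passed at an adjusted p under 0.05: S100b on NCD, Cnp on HFD, and S100b, Ngfr, Cnp and Mbp probe 3 over both diets.

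S100b, the glial calcium-binding protein, had the clearest difference on NCD. Its log2 levels were −0.70, −0.83, −0.67, −0.78 and −1.17 in CTR-NCD and −0.46, −0.033, −0.18, −0.23 and −0.32 in AR113Q-NCD arrays. Every AR113Q-NCD array was above every CTR-NCD array. The difference was 0.58 (SE 0.13), a rise of just under 1.5-fold, with an adjusted p of 0.00521 from limma. The 2-sided exact permutation test of this probe alone gave p = 0.00794, the smallest that 5 against 5 arrays allow. On HFD the levels were −0.98, −0.65, −0.45 and −1.13 in CTR and −0.56, −0.77, −0.36, −0.41 and −0.38 in AR113Q arrays, which overlapped. The HFD difference was 0.31 (SE 0.14, adjusted p = 0.155 from limma), and without CTR-HFD replicate 3 it was 0.43 (adjusted p = 0.0422). Over both diets the rise was 0.45 (SE 0.097, adjusted p = 0.00188 from limma), and it passed with each of the 19 arrays left out in turn. With normexp background correction, another treatment of the local background, the NCD difference was 0.38 and did not pass (adjusted p = 0.127), and the both-diets difference was 0.33 and did (adjusted p = 0.0317). The adipocyte markers, from cells that also make S100b, had 0 of 8 genes passing in limma in either diet, and the mean log2 level of that list overlapped between genotypes. It was 0.87 to 2.65 (CTR) and 1.31 to 2.39 (AR113Q) on NCD, and 0.84 to 2.48 and 0.55 to 2.48 on HFD. Its SD among the arrays of a group was 0.44 (AR113Q-NCD) to 0.86 (CTR-HFD), and the part of adipocytes in the S100b difference was not tested.

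Ngfr, the p75 receptor, had the largest log2 difference of the 10 probes in both diets, and an SD of 0.46 and 0.52 among the CTR arrays of NCD and HFD. Its log2 levels were −2.15, −2.75, −2.49, −1.95 and −3.11 in CTR-NCD and −1.15, −1.82, −2.05, −1.72 and −2.27 in AR113Q-NCD arrays. On HFD they were −1.78, −2.99, −2.47 and −2.08 in CTR and −1.36, −1.93, −1.68, −1.86 and −1.73 in AR113Q arrays. The highest CTR arrays lay within the AR113Q range in both diets. The difference was 0.69 on NCD (SE 0.25, adjusted p = 0.0712 from limma) and 0.62 on HFD (SE 0.27, adjusted p = 0.132), and neither passed. Without CTR-NCD replicate 4 it passed on NCD (0.83, adjusted p = 0.0399), and without CTR-HFD replicate 2 as well (0.69, adjusted p = 0.0489). Over both diets it was 0.65 (SE 0.18, adjusted p = 0.0120 from limma), a 1.57-fold rise, but with normexp background correction the NCD difference turned to −0.10, where the median of all genes was −0.51, and the both-diets difference was 0.17 (adjusted p = 0.533). A fit blocked on the slide called Ngfr on NCD (0.69, adjusted p = 0.0169) and on HFD (0.58, adjusted p = 0.0495). Ngfr was higher in the AR113Q array on each of the 5 slides that held both NCD groups and on each of the 4 that held both HFD groups. Of 5 satellite cell markers, 2 passed as higher (Megf10 and Calcr) and 1 as lower (Cdh15) on NCD, and 1 as higher on HFD (Vcam1). Of all genes, 17.4% on NCD and 17.9% on HFD were called in either direction. Pax7, the transcription factor of satellite cells, had 0.14 on NCD and 0.13 on HFD and did not pass (adjusted p = 0.733 and 0.754 from limma). The mean log2 level of that list did not overlap between genotypes, at −1.84 to −1.63 (CTR) and −1.57 to −1.40 (AR113Q) on NCD and at −1.91 to −1.52 and −1.46 to −1.32 on HFD. Their part in the Ngfr difference was not tested.

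**Figure D3:**
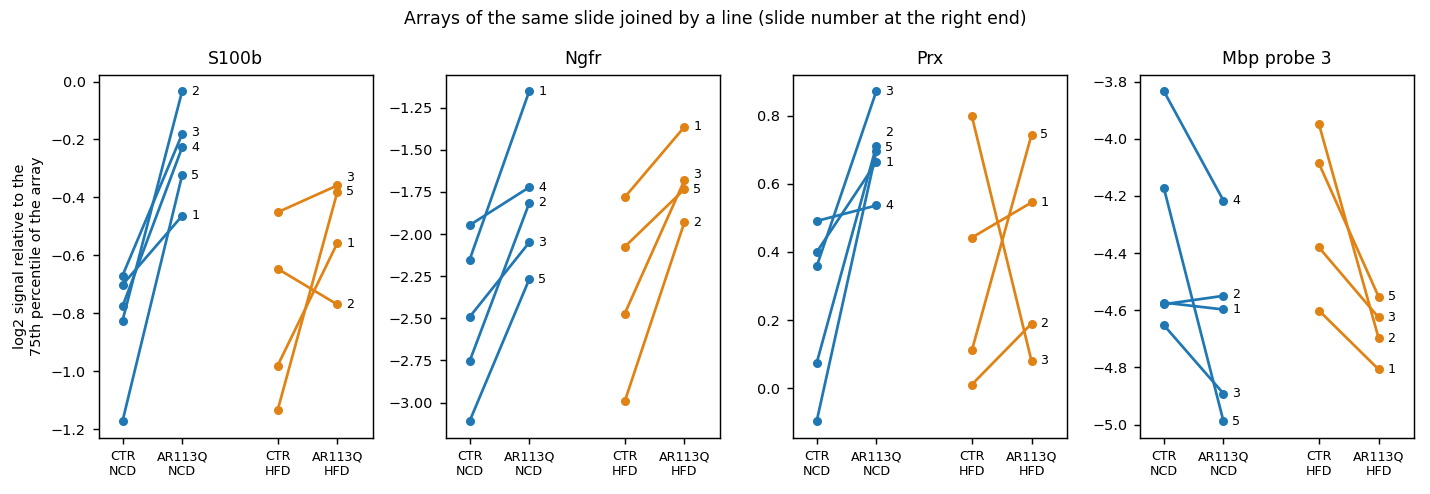
Log2 signal relative to the 75th percentile of the array (vertical axes, not starting at 0) of S100b, Ngfr, Prx and Mbp probe 3, with the CTR and AR113Q arrays of the same slide and diet joined by a line (blue NCD, orange HFD, slide number at the right end). All 9 Ngfr lines rise, 8 of the 9 S100b lines rise, and Prx rises on the 5 NCD slides and on 3 of the 4 HFD slides.

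Other parts of the p75 pathway were read through 10 genes tested. Maged1, an adaptor protein that binds the inner part of p75, rose by 0.82 on NCD and by 1.05 on HFD on the log2 scale (SE 0.12 for both), with adjusted p of 1.08e-04 and 2.27e-05 from limma, and it passed under every alternative run on it. Ntf5, which encodes neurotrophin 4/5, fell by 0.34 on NCD (adjusted p = 0.0352 from limma), a call lost without any 1 of 8 NCD arrays (CTR replicates 3, 4 and 5 and AR113Q replicates 1 to 5), where the adjusted p was 0.0509 to 0.0977. That call was also lost under median subtraction (adjusted p = 0.333), normexp (0.143) and the replicate block (0.0520). Over both diets Ntf5 fell by 0.26 (adjusted p = 0.0179 from limma), which did not pass under median subtraction (0.262) or normexp (0.167). It did not pass on HFD (−0.18, adjusted p = 0.334). Bdnf, which encodes brain-derived neurotrophic factor, did not pass, with differences of 0.70 on NCD and −0.20 on HFD and adjusted p of 0.134 and 0.739 in limma. Sort1, the sortilin co-receptor, had −0.39 and −0.32, and Ntrk2, the high-affinity receptor of that factor, −0.019 and −0.027. In all, 1 gene was higher and 1 lower of 10 on NCD, and 1 higher on HFD, where 17.4% and 17.9% of all genes were called in either direction, and over both diets 1 higher and 1 lower, where 29.1% were.

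Mbp, the intracellular glue of compact myelin, was read differently by its 3 probes. Mbp probe 2, the brightest (NM_001025245), ranged on NCD from −1.58 to −1.22 (CTR) and −2.0 to −1.27 (AR113Q), and on HFD from −1.75 to −1.33 (CTR) and −2.06 to −1.40 (AR113Q). Its groups overlapped in both diets, with differences of −0.12 (95% interval −0.45 to 0.20) on NCD and −0.19 (−0.53 to 0.16) on HFD. Mbp probe 1 (NM_010777) ranged from −3.54 to −2.21 over the 19 arrays, with differences of 0.11 (−0.37 to 0.60) and 0.15 (−0.37 to 0.66). Neither passed in any comparison, and the sign of the probe 1 difference turned under the authors' values (−0.033 on NCD) and under normexp (−0.59 on NCD). Mbp probe 3 (NM_010777) was the dim one. Its log2 levels were −4.57, −4.58, −4.65, −3.83 and −4.17 in CTR-NCD and −4.60, −4.55, −4.89, −4.22 and −4.99 in AR113Q-NCD arrays. On HFD they were −4.60, −3.95, −4.38 and −4.09 in CTR and −4.81, −4.70, −4.63, −4.95 and −4.55 in AR113Q arrays, where 1 CTR array lay within the AR113Q range. Over both diets Mbp probe 3 fell by 0.38 (SE 0.13, adjusted p = 0.0330 from limma), a call lost under quantile normalization, median subtraction and normexp and without any 1 of 8 arrays (CTR-NCD replicates 4 and 5, AR113Q-NCD replicates 3 and 5, CTR-HFD replicates 2 and 4, AR113Q-HFD replicates 1 and 4), where the adjusted p was 0.0514 to 0.0764. The probes of 1 gene therefore gave differences of both signs.

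Pmp22, the tetraspan protein of compact myelin, had 2 bright probes, whose genotype differences had the same sign. Pmp22 probe 2 ranged on NCD from 0.71 to 1.78 (CTR) and 1.58 to 1.95 (AR113Q), and on HFD from 1.29 to 1.85 (CTR) and 1.5 to 1.93 (AR113Q). Pmp22 probe 1 ranged from −0.13 to 0.45, 0.13 to 0.50, −0.40 to 0.35 and 0.013 to 0.27 in the same order. The groups overlapped for both probes in both diets. Over both diets the differences were 0.24 (95% interval −0.018 to 0.50, adjusted p = 0.161) for probe 2 and 0.18 (−0.030 to 0.40, adjusted p = 0.198) for probe 1 in limma, and neither passed on either diet alone. Without CTR-HFD replicate 3, Pmp22 probe 1 passed over both diets (0.26, adjusted p = 0.0420).

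Mag and Prx hold the sheath to the axon and to the basal lamina. Prx had log2 levels of 0.40, 0.074, 0.36, 0.49 and −0.097 in CTR-NCD and 0.66, 0.71, 0.87, 0.54 and 0.70 in AR113Q-NCD arrays. Every AR113Q-NCD array was above every CTR-NCD array, as for S100b. These were 2 of 10 probes, and 7.31% of all probes had every AR113Q-NCD array higher and 8.29% every one lower. On HFD, 0 of 10 were apart in either direction, against 7.41% higher and 8.29% lower. The Prx difference on NCD was 0.45 (SE 0.16), with p = 0.00794 from the 2-sided exact permutation test and an adjusted p of 0.0633 over all probes in limma, so it did not pass. It passed under 4 other settings, the smallest adjusted p being 0.0330 with array weights, and without CTR-HFD replicate 3 (0.0352). Over both diets its difference was 0.27 (adjusted p = 0.0925 from limma), and it passed without CTR-HFD replicate 3 (0.35, adjusted p = 0.0217) or AR113Q-HFD replicate 3 (0.32, adjusted p = 0.0494). On HFD Prx had 0.44, 0.011, 0.80 and 0.11 in CTR and 0.55, 0.19, 0.080, 0.62 and 0.74 in AR113Q arrays, a difference of 0.095 (SE 0.17, adjusted p = 0.772). The difference between the 2 diets' genotype effects was −0.36 (95% interval −0.85 to 0.14) and did not pass. Mag ranged on NCD from −2.44 to −1.66 (CTR) and −1.86 to −1.63 (AR113Q), and on HFD from −2.50 to −1.75 (CTR) and −2.29 to −1.75 (AR113Q). The AR113Q-NCD arrays of Mag lay inside the CTR-NCD range but for the highest, and the difference was 0.28 (−0.060 to 0.62) on NCD and 0.065 (−0.30 to 0.43) on HFD, with the sign turned on NCD under normexp (−0.20) and on HFD with the slide as a block (−0.0062).

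Cnp, the enzyme of uncompacted myelin, varied little between arrays of a group (SD 0.098 to 0.14). On HFD its log2 levels were −0.41, −0.71, −0.58 and −0.48 in CTR and −0.24, −0.41, −0.22, −0.16 and −0.33 in AR113Q arrays. The highest CTR-HFD array and the lowest AR113Q-HFD array were at the same level to 2 decimals, and the others did not overlap. The difference was 0.27 (SE 0.090, adjusted p = 0.0448 from limma), a 1.21-fold rise. On NCD the range was −0.44 to −0.089 in CTR and −0.43 to −0.053 in AR113Q arrays, a difference of 0.065 (SE 0.085, adjusted p = 0.693). Over both diets the difference was 0.17 (SE 0.062) at an adjusted p of 0.050, just inside the threshold, and that call was lost without any 1 of 14 arrays. The HFD call was lost under quantile normalization, median subtraction, normexp, the authors' values, no filter on dim probes, array weights and the fit of only the HFD groups, and without 12 of the 19 arrays left out 1 at a time, where the adjusted p reached 0.151 without CTR-HFD replicate 2. For Cnp, CTR-HFD arrays were lower than CTR-NCD arrays by 0.26 on the log2 scale. The unadjusted p was 0.00967 and the adjusted p 0.443 in limma. Pmp22 probe 1 had a larger fall in the same comparison (−0.28), without an unadjusted p under 0.05.

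The diets were compared within each genotype. Between CTR-HFD and CTR-NCD, 0 of 10 member probes passed in limma, against 0% of all probes, and 1 had an unadjusted p under 0.05 (Cnp). Between AR113Q-HFD and AR113Q-NCD, 0 of 10 passed, against 0.025% of all probes, and 0 had an unadjusted p under 0.05. In AR113Q mice 9 of the 10 differences were negative, from −0.26 for Prx to 0.088 for Ngfr, with a median of −0.17, beside −0.0016 for all genes. The 2-sided exact permutation test gave p = 0.0397 for Pmp22 probe 1 and p = 0.0476 for S100b in this comparison, unadjusted for 10 probes. For the genotype by diet interaction 0 of 10 passed, against 0% of all probes, and 0 had an unadjusted p under 0.05. The largest interaction was that of Prx. The counts for the diets and for the interaction were 0 under every alternative run.

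The slides were treated as the batch, and each slide carried arrays of several groups. Blocking on the slide in limma, 2 members passed on NCD (S100b and Ngfr), 3 on HFD (Cnp and Ngfr higher, Mbp probe 3 lower) and 4 over both diets. Within slides, S100b was higher in the AR113Q array on 5 of 5 slides on NCD, by 0.24 to 0.85, and on 3 of 4 on HFD, where the values ran from −0.12 to 0.75. Over the 9 pairs of arrays of both diets, Prx and Pmp22 probe 1 were higher in 8 and Pmp22 probe 2 in 7. Mbp probe 1 was higher in 7, Mag in 6 and Mbp probe 2 in 3. Cnp was higher on 4 of 5 slides on NCD and on 4 of 4 on HFD, by 0.15 to 0.36 there. Mbp probe 3 was lower on 4 of 5 slides on NCD and on 4 of 4 on HFD. Prx was higher on 5 of 5 slides on NCD, by 0.046 to 0.79. Slide 4 held no CTR-HFD array.

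Other genes of myelinating Schwann cells were read from a list of peripheral myelin genes, of which 16 were tested. Gldn, which encodes gliomedin, the Schwann cell ligand that gathers sodium channels at the node of Ranvier, had the largest rise of this list. Its log2 levels were −3.68, −3.81, −3.56, −3.26 and −3.66 in CTR-NCD and −2.11, −1.98, −2.40, −2.63 and −2.26 in AR113Q-NCD arrays. On HFD they were −3.68, −3.95, −3.62 and −3.90 in CTR and −1.27, −1.55, −1.59, −3.02 and −0.91 in AR113Q arrays. Neither pair of groups overlapped, and AR113Q-HFD replicate 4 stood well below the other AR113Q-HFD arrays. Gldn rose 2.49-fold on NCD (log2 1.32, SE 0.27, adjusted p = 0.00280) and 4.35-fold on HFD (log2 2.12, SE 0.29, adjusted p = 8.57e-05) in limma, but with normexp its NCD difference was −0.013, where the median of all genes was −0.51, and its HFD difference was 1.35 (adjusted p = 0.132). Its mean signal was 3.30 to 17.3 times the local background. Across all arrays, with group means removed, Gldn had Pearson r = −0.036 with Mag, 0.015 with S100b, −0.14 with Cnp and 0.17 with Prx. The values with Pmp22, Ngfr and Mbp were 0.18, 0.27 and 0.39. Which cells of the muscle gave the Gldn rise was not tested.

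Of the same list, Fa2h, the hydroxylase of myelin galactolipids, rose by 0.86 on NCD (adjusted p = 0.0193), Ncmap, a myelin protein outside compact myelin, by 0.57 (adjusted p = 0.0189) and Drp2, the dystrophin-related partner of periaxin, by 0.46 (adjusted p = 0.0416), all in limma. They did not pass on HFD, with 0.39, 0.39 and 0.31, and passed over both diets. The NCD call of Fa2h was lost without CTR-NCD replicate 2 or 5 (adjusted p = 0.0534 and 0.0581), and that of Drp2 without any 1 of 9 arrays (adjusted p = 0.0516 to 0.0963). Under normexp Fa2h turned to −0.86 and Drp2 to −0.12 on NCD, Ncmap kept a positive difference (0.32), and none of the 3 passed. A second Drp2 probe gave −0.095 and a second Ncmap probe 0.57 on NCD. In all, 4 of 16 genes were higher and 0 lower on NCD, and 1 was higher and 0 lower on HFD, where 8.31% and 7.74% of all genes were called higher and 9.04% and 10.2% lower. On NCD 15 of the 16 differences were positive with a median of 0.21, and on HFD 12 of 16 with a median of 0.16, beside 42.1% and 39.5% of all genes with a positive difference.

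**Figure D4:**
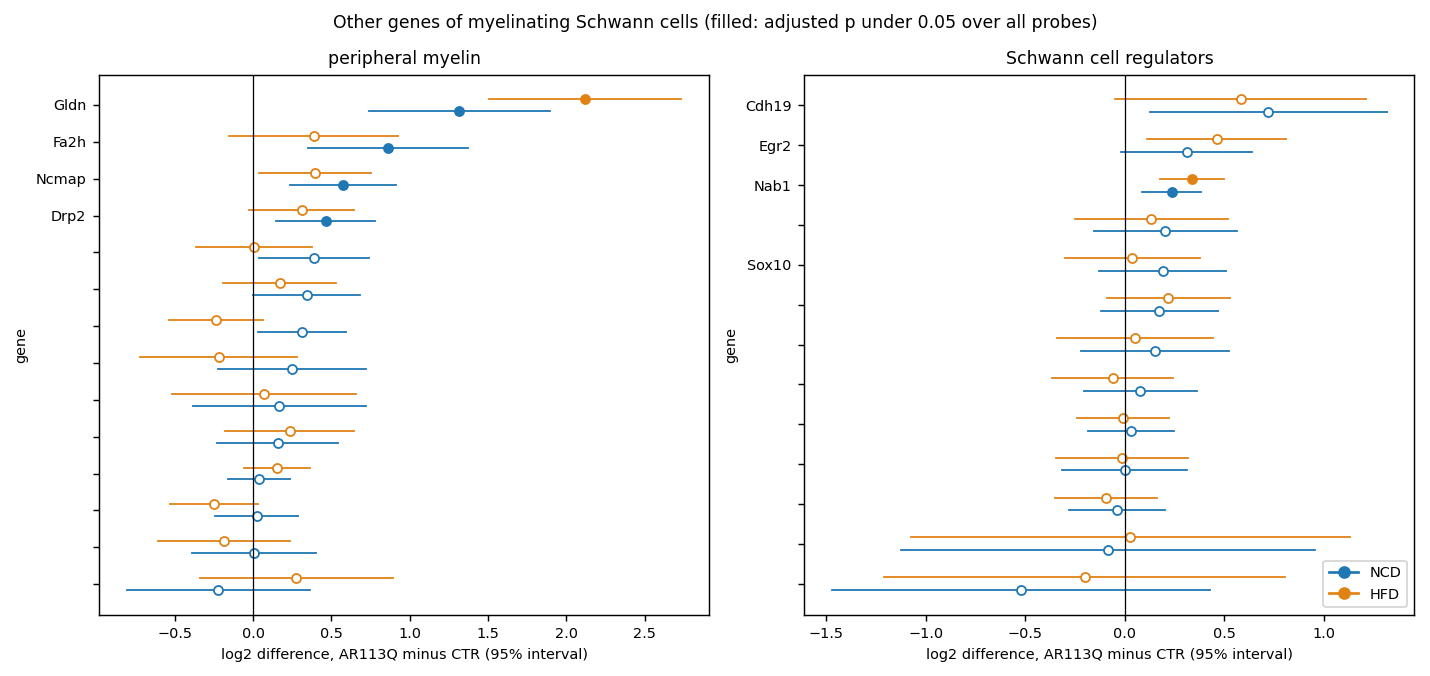
Log2 difference, AR113Q minus CTR, with its 95% interval from limma (horizontal axes) for 14 of the peripheral myelin genes (left) and 13 Schwann cell regulators (right), 1 probe per gene, on NCD (blue) and HFD (orange), with the genes named in the text labelled. Filled points passed at an adjusted p under 0.05, and Gldn lies apart from the other genes in both diets.

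Of 13 Schwann cell regulators tested, Nab1, a co-repressor that works with the EGR transcription factors, was higher on NCD (0.24, adjusted p = 0.0290 from limma), a call lost under median subtraction (0.29, adjusted p = 0.128), under normexp (−0.016) and without CTR-NCD replicate 4 or 5 or AR113Q-NCD replicate 3 or 5 (adjusted p = 0.0579 to 0.0833). On HFD its rise was 0.34 (adjusted p = 0.00435), which did not pass under normexp (0.30, adjusted p = 0.346). Over both diets Egr2, the transcription factor that drives the myelin programme, rose by 0.39 (adjusted p = 0.0159) and Cdh19, a cadherin of Schwann cell precursors, by 0.65 (adjusted p = 0.0232) in limma, and both turned negative under normexp (−0.036 and −0.39, where the median of all genes was −0.30). The Cdh19 call was lost without CTR-HFD replicate 4 (adjusted p = 0.0528). Cdh19 was well above background on 16 of 19 arrays. Sox10, the factor that keeps Schwann cell identity, did not pass, with 0.19 (SE 0.15) on NCD and 0.039 (SE 0.16) on HFD. No regulator passed as lower. The list's median difference was 0.15 on NCD and 0.039 on HFD.

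Of 8 genes of non-myelinating and repair Schwann cells, Btc, which encodes the growth factor betacellulin, rose by 0.76 on NCD (adjusted p = 0.00167 from limma) and did not pass on HFD (0.46, adjusted p = 0.0516), and under normexp its NCD difference was −0.93. The median of this list was −0.10 on NCD and 0.024 on HFD. Of 8 axon and perineurium genes, 0 passed in any comparison in limma, with a median of 0.28 on NCD and 0.059 on HFD. The 5 lists of Schwann cell and nerve genes together had 7 genes higher and 1 lower of 55 on NCD, against 8.31% and 9.04% of all genes. On HFD 3 were higher and 0 lower, against 7.74% and 10.2%. Over both diets 9 were higher and 1 lower, against 13% and 16%. All of these comparisons share their CTR and AR113Q arrays with those of the members.

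Markers of the muscle fibers themselves changed with genotype on the same arrays. Of 8 fiber genes, 7 fell on NCD (among them Ckm and Actn3) and on HFD 7 fell and 1 rose (Des), with list medians of −0.36 and −0.49. Their mean log2 level was 7.70 to 7.94 (CTR) and 7.28 to 7.44 (AR113Q) on NCD, and 7.72 to 7.87 and 7.26 to 7.45 on HFD. The list holds Myh4, a gene of glycolytic fibers, but not Tnni1, Tnnc1 or Tnnt1, genes of oxidative fibers. Less fiber RNA and a change of fiber type therefore cannot be told apart by it. Of 12 genes that muscle raises or lowers on losing its nerve, 5 rose on NCD (Chrna1, Gadd45a, Musk, Myog and Runx1) and 7 on HFD (these and Chrnb1 and Ncam1), and 1 fell over both diets (Hdac4). Their mean log2 level was −1.18 to −0.85 (CTR) and −0.60 to −0.47 (AR113Q) on NCD, and −1.12 to −0.80 and −0.45 to 0.029 on HFD. On NCD 0 of 7 endothelial, 0 of 7 macrophage, 0 of 4 red blood cell and 0 of 4 central glia genes passed, and 1 of 7 fibroblast genes did (Lum, higher). On HFD the counts of these 5 lists were the same. Over both diets 1 endothelial gene was lower (Cldn5, −0.54, adjusted p = 0.0220), 1 macrophage gene higher (Mrc1, 0.32, adjusted p = 0.0173), 1 red blood cell gene lower (Slc4a1, −0.56, adjusted p = 0.0266) and 1 fibroblast gene higher (Lum), in limma. Beside these list counts, 17.4% of all genes were called in either direction on NCD, 17.9% on HFD and 29.1% over both diets. The lists of fibers and of denervation genes did not overlap between genotypes in either diet, and their part in the members' differences was not tested.

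The members were also compared with each other across the 19 arrays, on deviations from the group means, with 1 probe per gene. Mag and Prx varied together most, with Pearson r = 0.70 (permutation p = 0.0115, adjusted p = 0.150 over the 21 pairs) and Spearman rho = 0.70 (permutation p = 0.0097, adjusted p = 0.102). Without the 2 arrays farthest from the median of Mag, r was 0.69, and with slide means removed as well it was 0.72 (adjusted p = 0.0256), the only pair to pass there. Pmp22 and S100b had r = 0.60 (permutation p = 0.0226, adjusted p = 0.150), which fell to 0.32 without the 2 arrays farthest on Pmp22, so that it rests on those arrays. Pmp22 and Prx had r = 0.59 (permutation p = 0.0150, adjusted p = 0.150), and 0.38 without 2 arrays. Cnp stood apart, with r between −0.14 and 0.17 with the other 6 genes, and S100b and Ngfr had r = −0.11. Over the 21 pairs 17 correlations were positive, the median was 0.33, and 0 passed after adjustment by Pearson or by Spearman. With normexp 4 pairs passed, among them Mag and Ngfr (r = 0.83) and Mbp and Mag (r = 0.75), and the Mag and Prx correlation was 0.15 there. With Mbp probe 1 in place of probe 2, a choice made after the data were seen, Mbp had r = 0.66 with Pmp22, 0.66 with Prx and 0.59 with S100b, and 0 pairs passed when adjusted over the 21 pairs (adjusted p = 0.0948 for Prx), where adjustment over the 6 pairs of that probe alone gave 0.0414 for Prx. Mag, Ngfr and Mbp were the dimmer members, and all points of a pair share array, slide and scaling.

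**Figure D5:**
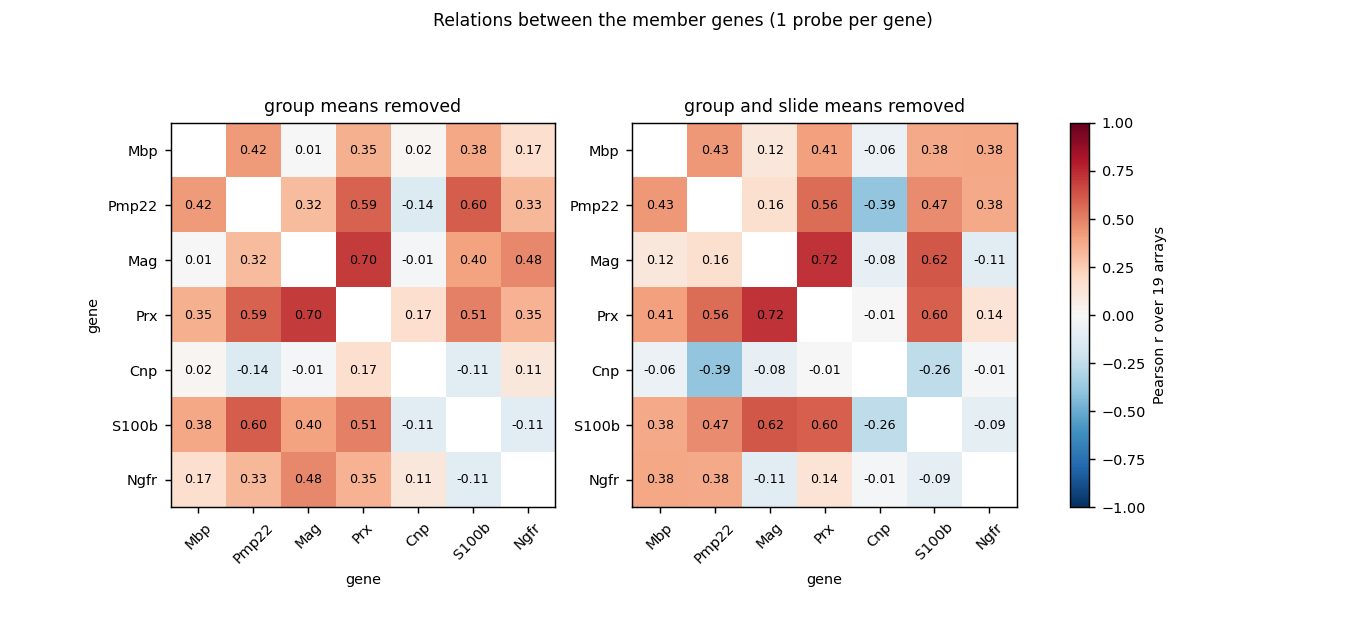
Pearson r between the 7 genes over 19 arrays, 1 probe per gene, with group means removed (left) and with group and slide means removed (right), on a colour scale from −1 (blue) to 1 (red). Mag and Prx have the highest value in both panels (0.70 and 0.72), and the values of Cnp lie near 0 or below it.

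The 3 genes most like each member over the 19 arrays, on the same deviations and among the tested probes that carry a gene name, were not on any of the lists used here. For Prx they were Kif1a, an axonal transport motor (r = 0.96), Plekha4 (r = 0.93) and Rgs11 (r = 0.91). For Pmp22 they were Cnn3, an actin-binding protein (r = 0.93), Zscan29 (r = 0.91) and Pdlim4 (r = 0.90). For S100b they were Pdlim5 (r = 0.90), Inpp1 (r = 0.89) and LOC101055890 (r = 0.87). For Mag they were E130311K13Rik (r = 0.92), 5830473C10Rik (r = 0.89) and 6430531B16Rik (r = 0.89), and for Ngfr Gm10383 (r = 0.92), Tspan11 (r = 0.90) and 4933432I09Rik (r = 0.89). Among the 10 genes most like each member, 1 was on a list: Pax7, the transcription factor of satellite cells, at rank 8 for Ngfr (r = 0.87, and 0.73 with slide means removed), named here after its value was seen. Its own genotype difference over both diets was 0.13 and did not pass (adjusted p = 0.552 from limma). For Mbp they were Slc35g2, Entpd1 and Oas2 (r = 0.81, 0.80 and 0.80), and for Cnp Pnkd, Slc12a9 and Sap25 (r = 0.81, 0.81 and 0.80). The values are the highest of those probes, they are a description, and the points share array, slide and scaling. Some peripheral myelin genes lay below the 10 highest, and are named after their values were seen. Prx had r = 0.86 with Drp2, 0.85 with Ncmap and 0.82 with Fa2h, each above at least 99.9% of probes. Mag had r = 0.84 with Fa2h, above 99.8%. Other genes of the lists were far from this: with Cdh19, Prx had r = −0.22 and Mag 0.17.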

How the data were processed

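Spot intensities were deposited per array and were made by the authors with Agilent Feature Extraction 10.7.3.1, whose background subtraction and detrending are set out in the file headers; they were not normalized between arrays. The submitters' processing notes also name limma. The authors' table of log2 values was used as an alternative only; its normalization is not given in the sources used here, and it lacks 2 of the member probes. Control and outlier spots were left out (43020 spots remained), spots of a probe were averaged on the log2 scale, and levels were taken relative to each array's 75th percentile. Tested were the 32026 probes (24741 genes) that stood well above background, by a share of 0.5 or more of their spots, on 4 or more of the 19 arrays. The 4 groups, taken from the sample labels, were fitted together with limma 3.58.1 (R 4.3.3), p-values being adjusted by Benjamini-Hochberg over all probes tested and no block; slide, replicate number and other settings were alternatives. Exact permutation tests (2-sided) were run on single member probes, and relations were tested with 100000 permutations within groups. Lists used the brightest probe per gene and were described by counts and medians. The method was tested on simulated data. The number of arrays limits the precision. The members and lists were chosen with earlier results of these data known. Named were every member probe, genes of the other lists that passed and up to 4 more per list, and the 3 genes most like each member. Correlations and figures were made with Python 3.11.15, numpy 2.4.6 and matplotlib 3.10.9. Some genes of the lists are counted but not reported singly here.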

Additional observations from a re-analysis of the deposited data

Results flagged for a closer look

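Among the 40 sets of arrays looked at (10 member probes in 4 groups), 2 held an array far from the others of its group, which is what chance alone would flag in about 1 of 20 sets. In AR113Q-NCD, Mag of replicate 4 was at −1.63 and the next array at −1.80, a gap of 0.745 of the group's range. In CTR-NCD, Pmp22 probe 2 of replicate 5 was at 0.71 and the next array at 1.5, a gap of 0.737 of the range. Neither probe passed in any comparison, with or without these arrays. No member probe passed for the genotype by diet interaction.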

How the results depend on the processing

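On NCD, where 1 member passed in the main fit, 2 passed under quantile normalization, median subtraction, the authors' values, the filter on all arrays, the slide block, array weights, eBayes with trend and robust settings and the fit of only the 2 groups, and 0 under normexp or with the fold thresholds (at least 1.5 or at most 0.6). On HFD, where 1 passed, 0 did under quantile normalization, median subtraction, normexp, the authors' values, no filter, array weights, only the 2 groups or the fold thresholds, and 3 with the slide block. Over both diets, where 4 passed, 2 did under quantile normalization, median subtraction and the authors' values, and 1 under normexp or with the fold thresholds. Leaving out each array in turn gave 1 to 2 members on NCD, 0 to 1 on HFD and 2 to 5 over both diets. The 5 Schwann cell and nerve lists had 8, 3 and 10 genes called of 55 on NCD, on HFD and over both diets. Of all genes, 17.4%, 17.9% and 29.1% were called there. Under normexp the lists had 1, 1 and 1, and under quantile normalization 6 on HFD. With an array left out they had 4 to 10, 3 to 6 and 10 to 13. Of 21 pairs of members, 0 passed in the main fit, 1 with slide means removed, 4 under normexp and 0, adjusted over the 21 pairs, with Mbp probe 1 in place of probe 2, which was chosen after seeing the data.

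Normexp moved the median of all genes to −0.509 on NCD, −0.027 on HFD and −0.300 over both diets, beside −0.057, −0.082 and −0.070. Signs turned under it on NCD for Cnp (−0.0052), Ngfr (−0.10), Mbp probe 1 (−0.59), Mag (−0.20), Nab1 (−0.016), Btc (−0.93), Gldn (−0.013), Fa2h (−0.86) and Drp2 (−0.12), and over both diets for Mbp probe 1 (−0.25), Mag (−0.068), Btc (−0.39), Egr2 (−0.036), Fa2h (−0.39) and Cdh19 (−0.39). Relative to that median, Cnp (0.50), Ngfr (0.41), Mag (0.31), Nab1 (0.49), Gldn (0.50) and Drp2 (0.39) were above it on NCD, and Mbp probe 1 (−0.078), Btc (−0.42) and Fa2h (−0.35) below it. The cause was not tested. Under the authors' values Mbp probe 1 had −0.033 on NCD, −0.11 on HFD and −0.073 over both diets, and with the slide block Mag had −0.0062 on HFD. With an array left out, Mbp probe 1 ran from −0.063 to 0.25 on NCD and from −0.050 to 0.35 on HFD, Mag from −0.074 to 0.18 on HFD and Prx from −0.015 to 0.25 on HFD.

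Replicate numbers were checked as a pairing: deviations of arrays with the same number had correlations of −0.21 to 0.54 over 27 pairs, not all above 0.1, and 15 of 19 arrays correlated best with their own number. Replicate and slide numbers were the same but for CTR-HFD replicate 4, on slide 5, so the replicate block nearly repeats the slide block. By slide, 16 of 19 arrays correlated best with their own, with a median r of 0.27 within slides and −0.089 between them. With the replicate block, 2 members passed on NCD, 2 on HFD and 4 over both diets.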
